A study of Homo sapiens with 12 samples.

Results

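The genes described here are 3 FOXO transcription factor genes, FOXO1, FOXO3 and FOXO4, and 5 genes known as FOXO targets, DEPP1, TP53INP1, SESN1, SESN3 and PIK3IP1. They were chosen by name, as the rows of the count table whose Ensembl identifiers map to these 8 symbols. The table held 58735 genes, of which 16133 passed the filter on low counts. All 8 passed it. Messenger RNA was sequenced from KP4 and MiaPaca2, established cell lines of human pancreatic ductal adenocarcinoma. Cells received the solvent DMSO or 100 nM of trametinib, which blocks the kinases MEK1 and MEK2 at an allosteric site, for 48 h. Each line with each treatment made 1 of the 4 groups, with 3 libraries in each. The medium of all groups was DMEM with HEPES, antibiotics and fetal bovine serum. Each line stands for a single tumour, and the labels do not name separate cultures behind the 3 libraries of a group. P-values therefore measure only the spread between these libraries, which may be technical. The 4 groups shared 1 estimate of the spread of each gene, so a p-value also draws on groups outside its comparison.

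FOXO proteins are forkhead transcription factors that act downstream of insulin and growth factor receptors. When PI3 kinase and AKT are active, AKT phosphorylates FOXO proteins, 14-3-3 proteins bind them and they leave the nucleus, while ERK can mark FOXO3 for breakdown through MDM2. When this signalling falls, FOXO proteins enter the nucleus and switch on genes of cell cycle arrest, cell death, oxidant defence and autophagy, including genes that feed back on PI3 kinase and mTOR. These steps act on proteins, which were not measured here. The values below are messenger RNA levels of the factors and of their target genes.

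FOXO proteins bind DNA at sites built around the letters GTAAACA, so the promoters that hold this core are shown. The RefSeq promoter table (GRCh38.p14, 250 bases before to 50 bases after each annotated start) matched 7 of the 8 genes, with 13 windows. TP53INP1 is not in it. Both strands were searched for GTAAACA and for CAAAACA, the core of the insulin response element. GTAAACA was found in 3 of the 7 genes, in 1 window each, and CAAAACA in 0 of them. Over all 27305 genes of the table, 4.19% held GTAAACA and 6.05% held CAAAACA. The DEPP1 window carried the match upstream of the start, beginning 180 bases before it, on the strand of the gene. The 250 bases before the start (chr10:44978810-44979059, minus strand) are given with the match in capitals. In FOXO4 (chrX:71095863-71095892, plus strand) and PIK3IP1 (chr22:31292454-31292483, minus strand) the match lay just after an annotated start, beginning at base 24 and base 17 of the transcript, and 30 bases around it are given. In PIK3IP1 the capitals are the reverse complement of GTAAACA, and this window belongs to the second of 2 annotated starts. RefSeq and GENCODE 29, which gave the gene positions elsewhere in the text, place the start of FOXO4 differently. GENCODE 29 starts FOXO4 at 71096197, so by that annotation the match lies upstream of the gene and outside its transcripts.
DEPP1: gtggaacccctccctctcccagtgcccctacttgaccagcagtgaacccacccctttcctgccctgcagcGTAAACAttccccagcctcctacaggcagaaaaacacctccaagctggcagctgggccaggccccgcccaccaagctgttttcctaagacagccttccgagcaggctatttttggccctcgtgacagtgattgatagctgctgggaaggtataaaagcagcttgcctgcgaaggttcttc
FOXO4: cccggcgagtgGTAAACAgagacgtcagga
PIK3IP1: taaagagaggcTGTTTACcagaacagcata

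The windows of FOXO1, FOXO3, SESN1 and SESN3 held neither core. No match says only that these letters are not in these windows, and a match is not a measured binding site. The share of G and C ran from 45% in SESN3 to 78.3% in the first FOXO3 window, against a median of 58.7% over all windows of the table. In the responses described below, DEPP1 and PIK3IP1, which held the core, changed most in KP4, while FOXO4, which also held it, was among those that changed least. In MiaPaca2 PIK3IP1 and TP53INP1 changed most (log2 fold changes 3.50 and 2.27), and TP53INP1 had no window to search. A link between the core and the size of the response was not tested.

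Total counts per library ran from 20293688 to 28018129, and levels are given as CPM, the count scaled to a common library size, after TMM scaling, so that a level is relative to the other genes of a library. The block of MEK was visible in every treated library through SPRY4 and DUSP6, feedback inhibitors switched on by ERK: the log2 fold changes of SPRY4 were −6.60 in KP4 and −6.03 in MiaPaca2, and those of DUSP6 were −6.63 and −5.76 (edgeR adjusted p between 6.66e-28 and 1.97e-06). MiaPaca2 DMSO replicate 2 stood apart from its group. The chi-square of its counts against the other two, per degree of freedom, was 14.5 and 13.3, and that between the other two 7.70, against 2.02 to 2.89 within the other 3 groups. For the 8 genes, the calls that changed without this library are also given. Values of other genes are given only with it. Of 8 epithelial markers, KRT8, KRT18 and SOX9 were above 25 CPM in all 4 groups, while EPCAM and CDH1 were below 1 CPM in both DMSO groups. Their summed level was lower under trametinib in every library, going from 372 to 383 CPM to 237 to 246 CPM in KP4 and from 1844 to 2218 CPM to 853 to 861 CPM in MiaPaca2. KRT7, KRT18 and SOX9 in KP4, and KRT8, KRT18, KRT19 and SOX9 in MiaPaca2, had lower means, while the others had higher ones: CDH1 went from 0.472 to 4.96 CPM and MUC1 from 8.58 to 11.9 CPM in KP4, and CDH1 from 0.141 to 2.30 CPM and MUC1 from 17.1 to 110.9 CPM in MiaPaca2. Of 16 markers of immune, endothelial, fibroblast, acinar and endocrine cells, 6 to 8 had 0 counts in a group, among them PRSS1, CPA1, CELA3A, CD3E and INS in all 4 groups, and their sum went from 10.1 to 11.1 CPM to 12.7 to 13.2 CPM in KP4 and from 9.88 to 10.9 CPM to 17.0 to 20.3 CPM in MiaPaca2. Most of this was COL1A1, from 7.38 to 10.4 CPM and from 4.47 to 11.4 CPM, and some had lower means, such as PTPRC (1.35 to 0.561 CPM) in KP4 and CDH5 (1.47 to 0.400 CPM) in MiaPaca2. The part of these shifts in the results was not tested, and in bulk samples fewer cells of a kind and less RNA per cell cannot be told apart.

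All 8 genes were higher after trametinib in both lines, in every library. They were chosen with earlier results of these data known, so the counts below describe them and do not test them against all genes. In KP4, 8 of 8 passed edgeR's test as higher, against 23.9% of all tested genes called higher and 24.1% called lower, and 5 of them rose at least 2-fold, against 5.67% of all genes. In MiaPaca2, 8 of 8 were called higher, against 34.4% higher and 29.7% lower, and 5 rose at least 2-fold, against 12.8%. No treated library of any of the 8 overlapped a DMSO library of the same line, which held for 29.6% of all tested genes in the higher direction in KP4 and 34.6% in MiaPaca2. The median log2 fold change of the 8 was 1.44 in KP4 and 1.32 in MiaPaca2, against 0 and 0.05 for all tested genes. Without MiaPaca2 DMSO replicate 2 the count in MiaPaca2 was still 8, with log2 fold changes from 0.37 for SESN1 to 3.49 for PIK3IP1. The same 5 genes, FOXO1, DEPP1, TP53INP1, SESN3 and PIK3IP1, made up the group that rose at least 2-fold in either line.

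**Figure D1:**
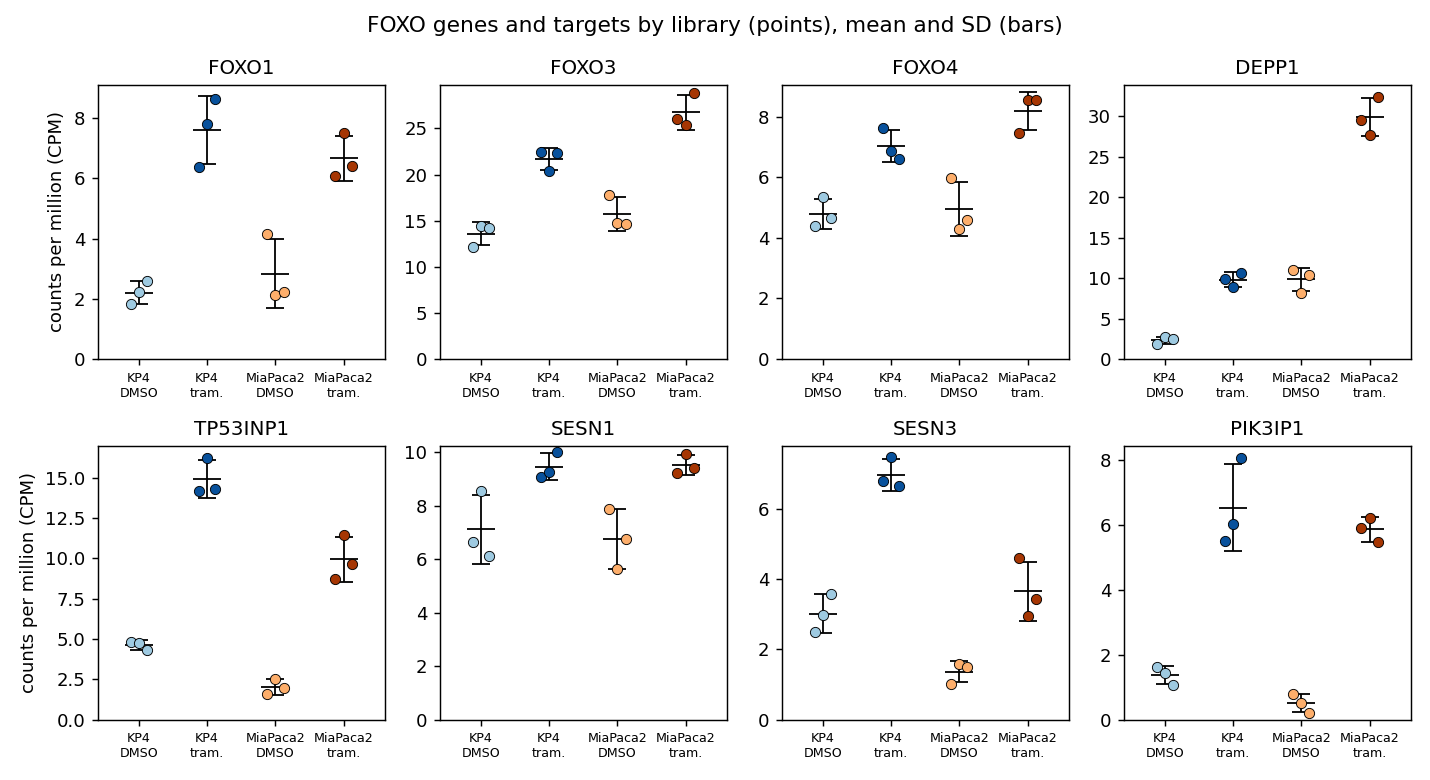
Levels (CPM) of the 8 genes in each of the 12 libraries (points, 3 per group), with the group mean and SD as bars, in KP4 and MiaPaca2 after DMSO or trametinib (tram.). In every panel the treated points lie above the DMSO points of the same line, and the y axes start at 0.

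FOXO1, which in other tissues drives gluconeogenesis and cell cycle exit, showed the largest change of the 3 factors. The gene (ENSG00000150907) lies on chromosome 13, from 40469953 to 40666597 on the minus strand (GRCh38). In KP4 its level was 1.82, 2.21 and 2.58 CPM in the DMSO libraries and 6.39, 7.81 and 8.64 CPM in the trametinib libraries. The MiaPaca2 libraries gave 4.17, 2.13 and 2.22 CPM in DMSO and 6.09, 7.505 and 6.40 CPM in trametinib. The groups did not overlap within a line, and MiaPaca2 DMSO replicate 1 lay well above the other DMSO libraries. The log2 fold change was 1.77 ± 0.20 (SE) in KP4, a 3.42-fold rise (edgeR adjusted p = 3.55e-08), and 1.21 ± 0.20 in MiaPaca2, a 2.31-fold rise (edgeR adjusted p = 1.14e-05). Without MiaPaca2 DMSO replicate 1 the latter was 1.60. A stretch of 4.32% of FOXO1's exon bases is shared with the noncoding gene LINC00598 on the same strand.

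FOXO3, the factor with the highest level, rose less. It lies on chromosome 6 (ENSG00000118689, 108559835 to 108684774, plus strand). Its level in KP4 was 12.2, 14.5 and 14.2 CPM in DMSO and 22.5, 20.4 and 22.3 CPM in trametinib. In MiaPaca2 it was 17.8, 14.7 and 14.6 CPM in DMSO and 26.0, 25.3 and 28.9 CPM in trametinib. Treated and DMSO libraries were separate in both lines, with log2 fold changes of 0.67 ± 0.09 and 0.77 ± 0.09 (edgeR adjusted p = 1.18e-06 and 5.46e-08). FOXO3 has a processed pseudogene, FOXO3B on chromosome 17, and 27.8% of the 50-base windows of FOXO3's transcripts occur in other transcripts, most often in FOXO3B. How reads with several matching places were counted is not given in the sources used here, so the FOXO3 level is uncertain to that extent. FOXO3B itself was counted at 4.55 ± 0.718 CPM in KP4 DMSO and 4.18 ± 0.492 CPM in KP4 trametinib (mean ± SD, n = 3), and it passed the test in neither line (log2 fold changes −0.12 and −0.06, edgeR adjusted p = 0.595 and 0.790).

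FOXO4, on the X chromosome (ENSG00000184481, 71096197 to 71103535, plus strand), had the smallest fold change of the 3 factors in both lines. In KP4 the DMSO libraries held 4.40, 5.36 and 4.65 CPM and the trametinib libraries 7.62, 6.88 and 6.60 CPM. In MiaPaca2 they held 5.98, 4.30 and 4.61 CPM and 7.47, 8.54 and 8.57 CPM. MiaPaca2 DMSO replicate 1 was the highest of its group, and treated and DMSO libraries did not overlap in either line. The log2 fold changes were 0.55 ± 0.14 and 0.72 ± 0.14 (edgeR adjusted p = 0.00191 and 0.000101). FOXO6, the remaining gene of the family, best known from brain, was at 2.50 ± 0.272 CPM in KP4 DMSO and 2.86 ± 0.713 CPM in MiaPaca2 DMSO and rose by 0.50 ± 0.20 in KP4 and 0.67 ± 0.20 in MiaPaca2 on the log2 scale (edgeR adjusted p = 0.0427 and 0.00472). In KP4 that call was lost when any of KP4 DMSO replicates 1, 2 and 3 or KP4 trametinib replicates 2 and 3 was left out (edgeR adjusted p from 0.0537 to 0.174), and with limma-voom in place of edgeR (adjusted p = 0.0593). FOXO1B, a FOXO1 pseudogene, had at most 5 counts in a library and was not tested.

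Compared per length, as CPM per kilobase of exon (RPKM), FOXO3 was the most abundant of FOXO1, FOXO3 and FOXO4 in every library and FOXO1 the least. The sum of the 3 was 3.51 ± 0.330 RPKM in KP4 DMSO and 6.07 ± 0.164 in KP4 trametinib (SD, n = 3), and 3.93 ± 0.676 in MiaPaca2 DMSO and 6.91 ± 0.373 in MiaPaca2 trametinib. Within this sum the share of FOXO1 in KP4 was 9.30%, 9.39% and 11.5% in DMSO and 16.7%, 21.3% and 22.4% in trametinib. In MiaPaca2 the share was 14.2%, 9.77% and 9.91% in DMSO and 15.0%, 17.3% and 14.2% in trametinib. The share of FOXO1 was therefore higher in every treated library of KP4, while in MiaPaca2 one DMSO library, replicate 1, overlapped the treated group. FOXO3 kept the largest share in all 4 groups, with a mean of 50.2% before and 46.3% after trametinib in KP4 and of 52.1% and 50.1% in MiaPaca2.

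**Figure D2:**
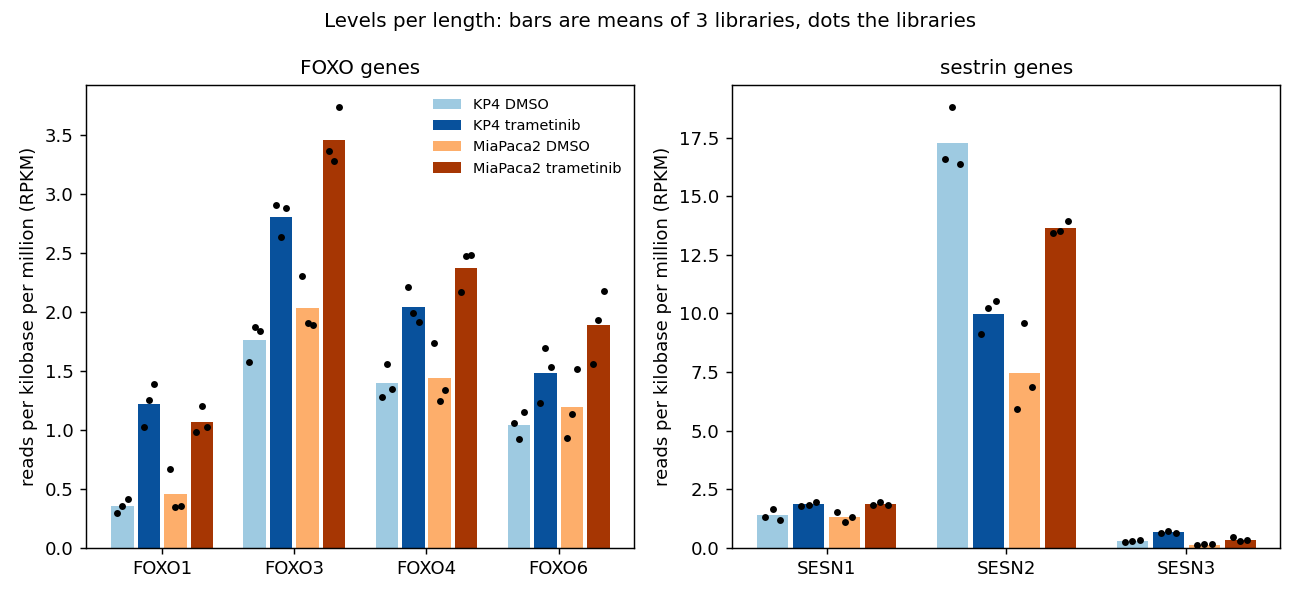
Levels per length (RPKM, linear axis from 0) of the FOXO genes (left) and the sestrin genes (right), with bars for the mean of 3 libraries and dots for the libraries. FOXO3 has the tallest bar of the FOXO genes in each group, and SESN2 stands far above SESN1 and SESN3, falling in KP4 and rising in MiaPaca2.

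Among the targets, the largest change in both lines was that of PIK3IP1, which encodes a membrane protein that binds the catalytic subunit of PI3 kinase and lowers its activity. The gene (ENSG00000100100) lies on chromosome 22, from 31281593 to 31292534 on the minus strand, and its match to the FOXO core is shown with the sequences. In KP4 it was counted at 1.62, 1.44 and 1.07 CPM in DMSO and 5.52, 6.02 and 8.05 CPM in trametinib. MiaPaca2 cells had 0.784, 0.511 and 0.222 CPM in DMSO, which are 19, 12 and 5 counts, and 5.89, 6.22 and 5.47 CPM in trametinib. The DMSO level thus differed between the lines while the treated libraries of both lines overlapped. The rise was 4.74-fold in KP4 (log2 2.25 ± 0.21, edgeR adjusted p = 1.86e-09) and 11.3-fold in MiaPaca2 (3.50 ± 0.29, edgeR adjusted p = 6.43e-11).

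DEPP1, a small protein that FOXO factors induce and that has been tied to oxidant levels and autophagy, rose about as strongly in KP4. It lies on chromosome 10 (ENSG00000165507, 44970981 to 44978810, minus strand). KP4 held 1.82, 2.68 and 2.43 CPM in DMSO and 9.94, 8.86 and 10.6 CPM in trametinib. MiaPaca2 held 11.01, 8.22 and 10.3 CPM in DMSO and 29.5, 27.7 and 32.4 CPM in trametinib. Treated KP4 cells thus reached the level that MiaPaca2 cells had in DMSO. The log2 fold changes were 2.08 ± 0.17 in KP4 and 1.60 ± 0.10 in MiaPaca2 (edgeR adjusted p = 7.39e-11 and 4.64e-13). RASSF4 overlaps 23.3% of DEPP1's exon bases on the opposite strand, and whether the counting used strand is not given in the sources used here, so reads of the overlap cannot be assigned with certainty.

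TP53INP1, a stress protein that takes part in autophagy and is often lost in pancreatic cancer, lies on chromosome 8 (ENSG00000164938, 94925972 to 94949411, minus strand). In KP4 it was at 4.83, 4.78 and 4.30 CPM in DMSO and 14.2, 16.3 and 14.3 CPM in trametinib. In MiaPaca2 it was 1.61, 2.56 and 1.95 CPM in DMSO and 8.73, 11.5 and 9.63 CPM in trametinib. No other gene overlaps its exons, and the groups lay far apart in both lines. It rose 3.22-fold in KP4 and 4.84-fold in MiaPaca2 (log2 1.69 ± 0.13 and 2.27 ± 0.17, edgeR adjusted p = 2.02e-11 and 1.36e-11). Its relative TP53INP2, which also acts in autophagy, was far more abundant, at 61.3 ± 2.66 CPM in KP4 DMSO and 37.3 ± 2.70 CPM in MiaPaca2 DMSO, and rose by 0.47 ± 0.06 and 1.01 ± 0.06 on the log2 scale (edgeR adjusted p = 8.40e-08 and 1.37e-13).

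Sestrins are stress-induced proteins that restrain mTORC1 through the GATOR2 complex. SESN3, the sestrin most tied to FOXO factors, lies on chromosome 11 (ENSG00000149212, 95165513 to 95232541, minus strand). In KP4 its level was 2.50, 2.99 and 3.58 CPM in DMSO and 6.78, 7.47 and 6.64 CPM in trametinib. The values in MiaPaca2 were 1.03, 1.58 and 1.51 CPM in DMSO and 4.59, 2.96 and 3.43 CPM in trametinib. The treated MiaPaca2 libraries were widely spread but all above DMSO. SESN3 rose 2.29-fold in KP4 (log2 1.19 ± 0.16, edgeR adjusted p = 9.53e-07) and 2.70-fold in MiaPaca2 (1.43 ± 0.24, edgeR adjusted p = 1.09e-05).

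SESN1, a sestrin that FOXO3 can induce, had the smallest change of the 8 genes. It lies on chromosome 6 (ENSG00000080546, 108986437 to 109094819, minus strand), and an unnamed antisense gene covers 7.09% of its exon bases. In KP4 it was at 6.65, 8.55 and 6.12 CPM in DMSO and 9.06, 9.27 and 10.0 CPM in trametinib. In MiaPaca2 it was 7.88, 5.62 and 6.74 CPM in DMSO and 9.22, 9.92 and 9.38 CPM in trametinib. Groups were separate by a narrow margin in KP4. The log2 fold changes were 0.41 ± 0.13 and 0.49 ± 0.14 (edgeR adjusted p = 0.00952 and 0.00315), and without KP4 DMSO replicate 3 the KP4 value was 0.31 and no longer passed (edgeR adjusted p = 0.0841).

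SESN2, a leucine-binding sestrin and a known ATF4 target, moved in opposite directions. In KP4 it was at 57.4, 65.0 and 56.6 CPM in DMSO and 31.4, 35.3 and 36.3 CPM in trametinib. MiaPaca2 libraries held 20.4, 33.1 and 23.7 CPM in DMSO and 46.4, 46.7 and 48.1 CPM in trametinib. It fell by 0.80 ± 0.12 in KP4 and rose by 0.87 ± 0.13 in MiaPaca2 on the log2 scale (edgeR adjusted p = 8.18e-05 and 5.47e-05), and the difference of −1.67 ± 0.18 passed the test (edgeR adjusted p = 6.89e-06). Per length SESN2 was the most abundant sestrin in all 4 groups. The summed level of the 3 sestrins accordingly went from 18.9 ± 1.58 to 12.5 ± 0.831 RPKM in KP4, although SESN1 and SESN3 rose, and from 8.90 ± 1.71 to 15.8 ± 0.225 RPKM in MiaPaca2.

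**Figure D3:**
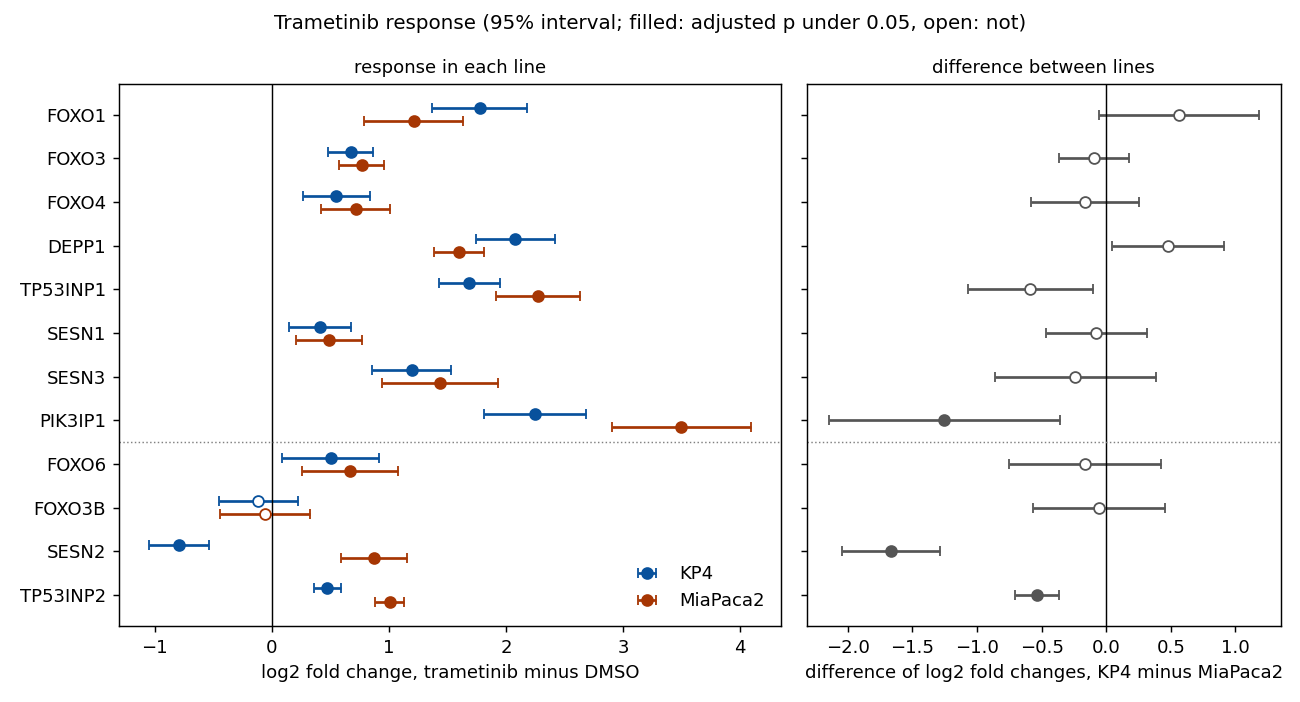
Log2 fold changes, trametinib minus DMSO, of the 8 genes and, below the dotted line, of 4 relatives in KP4 and MiaPaca2 (left), and the difference between the lines (right), with 95% intervals from edgeR and filled points for an adjusted p under 0.05. All 8 genes lie right of 0 in both lines, PIK3IP1 is the only one of them with a filled point on the right, and SESN2 lies on opposite sides of 0 in the lines.

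The size of the response was compared between the lines with the difference of the log2 fold changes, KP4 minus MiaPaca2. Of the 8 genes, 0 were called higher and 1 lower, against 16% and 19.7% of all tested genes. The gene called was PIK3IP1, whose rise was smaller in KP4 by 1.25 ± 0.44 on the log2 scale, with a 95% interval of the difference from −2.15 to −0.36 (edgeR adjusted p = 0.0263). The call was lost when some single libraries were left out: without KP4 DMSO replicate 1 the adjusted p was 0.0820, without KP4 DMSO replicate 2 it was 0.0583, without KP4 trametinib replicate 1 it was 0.0585, and without MiaPaca2 DMSO replicate 3, the library with 5 counts, the difference was −0.91 with an adjusted p of 0.124 in edgeR. TP53INP1 (−0.59 ± 0.23, edgeR adjusted p = 0.0527) and DEPP1 (0.48 ± 0.21, edgeR adjusted p = 0.0777) missed the threshold, and their 95% intervals, −1.07 to −0.10 and 0.05 to 0.91, did not include 0. The interval of FOXO1 ran from −0.06 to 1.18, and those of FOXO3, FOXO4, SESN1 and SESN3 also included 0, from −0.37 to 0.18, from −0.58 to 0.25, from −0.47 to 0.31 and from −0.86 to 0.38.

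Without MiaPaca2 DMSO replicate 2, the library that stood apart, 2 genes were called higher in the difference and 2 lower. They were FOXO1 at 0.74 (edgeR adjusted p = 0.0393), DEPP1 at 0.59 (0.0153), TP53INP1 at −0.78 (0.0146) and PIK3IP1 at −1.25 (0.0348). The counts therefore depended on which libraries of 3 were used, whereas the direction of each response within a line did not.

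Between the lines in DMSO, 3 of the 8 genes were higher in KP4 and 1 lower, against 32% and 31.2% of all tested genes, so the count of 4 in all was not above the background. TP53INP1, SESN3 and PIK3IP1 were higher in KP4 by 1.18 ± 0.20, 1.15 ± 0.25 and 1.41 ± 0.40 on the log2 scale (edgeR adjusted p = 1.30e-05, 0.000228 and 0.00355). DEPP1 was 4.25-fold lower in KP4 (−2.09 ± 0.17, edgeR adjusted p = 5.06e-11). FOXO1 (−0.37 ± 0.25), FOXO3 (−0.21 ± 0.10), FOXO4 (−0.05 ± 0.16) and SESN1 (0.07 ± 0.14) did not pass, with edgeR adjusted p of 0.217, 0.0738, 0.790 and 0.693. FOXO3 passed when MiaPaca2 DMSO replicate 2 or replicate 3 was left out (−0.25 and −0.26, edgeR adjusted p = 0.0363 and 0.0461).

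Under trametinib 2 of the 8 genes were higher in KP4 and 2 lower, against 26.5% and 29.8% of all tested genes. TP53INP1 and SESN3 were higher by 0.60 ± 0.11 and 0.91 ± 0.16, and FOXO3 and DEPP1 were lower, at −0.30 ± 0.08 and −1.61 ± 0.10 (edgeR adjusted p = 4.99e-05, 2.88e-05, 0.00350 and 3.47e-13). For PIK3IP1 the difference was 0.16 ± 0.16, with a 95% interval from −0.16 to 0.48 (edgeR adjusted p = 0.408), so the gap seen in DMSO was not detected after treatment. The comparisons between the lines use the same libraries as those of the responses.

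Ordered by mean RPKM in KP4 DMSO, the 8 genes ran from FOXO3 at 1.76, FOXO4 at 1.39 and SESN1 at 1.39 through TP53INP1 at 0.817 and DEPP1 at 0.776 to PIK3IP1 at 0.362, FOXO1 at 0.354 and SESN3 at 0.286. The libraries of FOXO3 and FOXO4 did not overlap, but the highest SESN1 library, at 1.67 RPKM, lay above the lowest of FOXO3, at 1.57. The libraries of the neighbours FOXO4 and SESN1, of TP53INP1 and DEPP1, and of PIK3IP1, FOXO1 and SESN3 also overlapped. In KP4 trametinib the order was DEPP1 at 3.29, FOXO3 at 2.81, TP53INP1 at 2.63, FOXO4 at 2.04, SESN1 at 1.85, PIK3IP1 at 1.72, FOXO1 at 1.22 and SESN3 at 0.659. Here FOXO3 overlapped TP53INP1, and FOXO4, SESN1 and PIK3IP1 overlapped in turn. DEPP1 was thus among the middle genes of KP4 in DMSO and the most abundant per length after treatment. In MiaPaca2 DMSO DEPP1 was first at 3.31 RPKM, before FOXO3 at 2.04, FOXO4 at 1.44, SESN1 at 1.32, FOXO1 at 0.455, TP53INP1 at 0.359, PIK3IP1 at 0.133 and SESN3 at 0.130, where FOXO4 with SESN1, FOXO1 with TP53INP1, and PIK3IP1 with SESN3 overlapped. After trametinib DEPP1 was at 10.0 RPKM, FOXO3 at 3.46, FOXO4 at 2.38, SESN1 at 1.86, TP53INP1 at 1.75, PIK3IP1 at 1.54, FOXO1 at 1.07 and SESN3 at 0.346, and TP53INP1 overlapped both SESN1 and PIK3IP1. All 8 were genes of middle to low abundance, since between 49.5% (FOXO3) and 70.7% (PIK3IP1) of tested genes had a higher mean level.

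The other FOXO targets were described with a list of 34 genes, of which 27 passed the filter on low counts. In KP4 18 of the 27 were called higher and 0 lower, with a median log2 fold change of 0.52. In MiaPaca2 20 were higher and 3 lower, with a median of 0.88. Over all tested genes 23.9% were called higher and 24.1% lower in KP4, and 34.4% and 29.7% in MiaPaca2. The median log2 fold changes of all tested genes were 0 and 0.05. The list was also chosen with earlier results of these data known, so its counts do not test it against all genes. The 5 fuel metabolism genes of the list, PDK4, G6PC1, PCK1, IGFBP1 and PPARGC1A, were not among the tested genes, nor were FASLG and TRIM63. Of 4 cell cycle genes 3 were higher in each line. Of 5 tested cell death genes 4 were higher in KP4 and 5 in MiaPaca2, and of 7 tested genes of autophagy and protein degradation 4 and 6 were higher. Of 3 receptor and adaptor genes, which FOXO factors induce when insulin signalling is low, 1 was higher in KP4 and 1 was lower in MiaPaca2. The promoter windows of 3 of 28 matched list genes, BCL2L11, MXI1 and TXNIP, held GTAAACA.

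**Figure D4:**
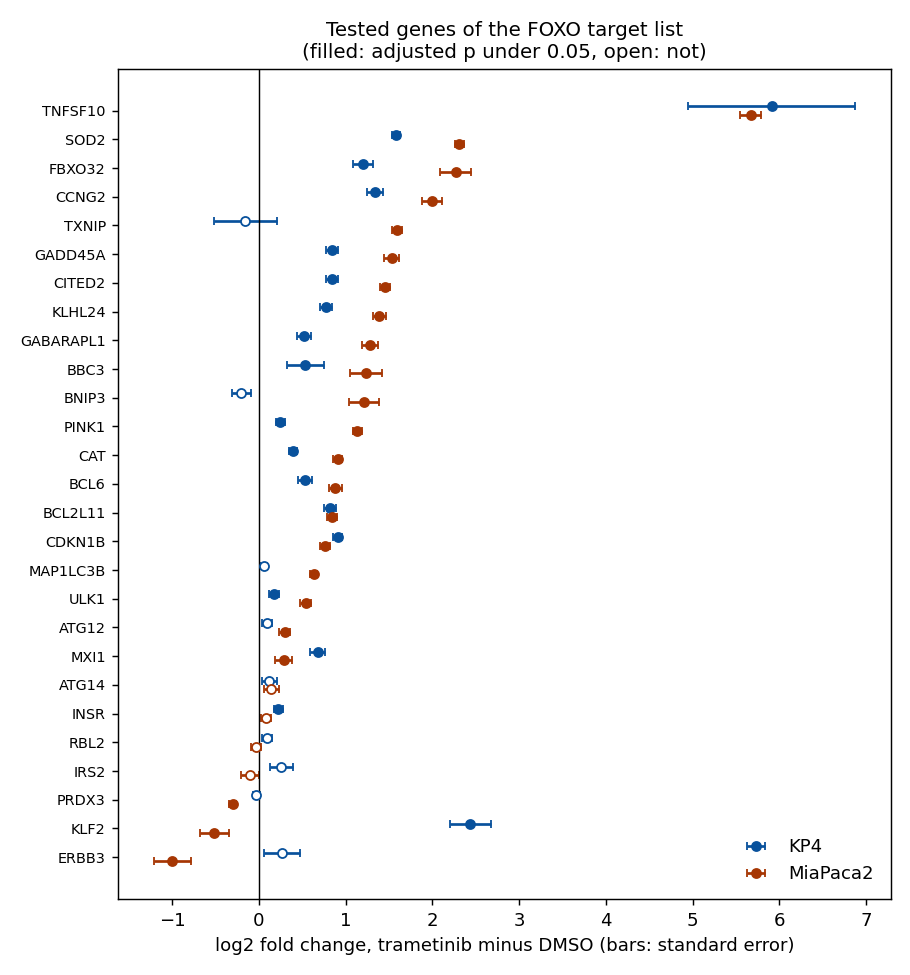
Log2 fold changes, trametinib minus DMSO, with standard errors for the 27 tested genes of the FOXO target list in KP4 and MiaPaca2, ordered by the MiaPaca2 value, with filled points for an adjusted p under 0.05. Most points lie right of 0 in both lines. TNFSF10 is farthest right, and KLF2 and ERBB3 have filled points left of 0 in MiaPaca2 but lie right of 0 in KP4.

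The list gene with the largest change was TNFSF10, which encodes the death ligand TRAIL. In KP4 it had 1 count in the 3 DMSO libraries together and 87 in the 3 trametinib libraries, a ratio of 84.4 with an exact 95% interval from 14.7 to 3370 that covers counting error only. In MiaPaca2 it rose from 2.72 ± 1.10 CPM to 138 ± 5.83 CPM (log2 5.67 ± 0.12, edgeR adjusted p = 7.37e-21). After treatment its mean level in KP4, 1.05 ± 0.420 CPM, was still below the mean of MiaPaca2 DMSO. The libraries overlapped, with a highest value of 1.48 CPM in KP4 trametinib and a lowest of 1.45 CPM in MiaPaca2 DMSO. SOD2, the mitochondrial superoxide dismutase, rose by 1.58 ± 0.05 and 2.31 ± 0.05 on the log2 scale, though 2 Ensembl genes carry this symbol and its value is uncertain for that reason. CCNG2, a cyclin that holds cells out of the cycle, rose by 1.34 ± 0.09 and 2.00 ± 0.11. FBXO32, a ubiquitin ligase of muscle wasting, rose by 1.20 ± 0.12 and 2.27 ± 0.18 (edgeR adjusted p for these 3 genes in both lines at most 3.99e-09).

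The list did not move as a block. KLF2, a transcription factor of quiescence, rose 5.42-fold in KP4 (log2 2.44 ± 0.24, edgeR adjusted p = 1.08e-05) and fell by 0.51 ± 0.16 in MiaPaca2 (edgeR adjusted p = 0.0195, or 0.0619 when MiaPaca2 trametinib replicate 3 was left out). Its DMSO level was 5.80 ± 1.24 CPM in KP4 and 57.4 ± 15.5 CPM in MiaPaca2. ERBB3, a receptor induced by FOXO factors when PI3 kinase is blocked, fell by 1.00 ± 0.22 in MiaPaca2 (edgeR adjusted p = 0.000252) and had a log2 fold change of 0.27 ± 0.21 in KP4 (edgeR adjusted p = 0.313). PRDX3, a mitochondrial peroxidase, fell by 0.30 ± 0.04 in MiaPaca2 (edgeR adjusted p = 6.73e-07), with −0.03 ± 0.04 in KP4. TXNIP, a redox protein singled out after its values were seen, was at 0.571 ± 0.181 CPM in KP4 DMSO and 0.510 ± 0.0856 CPM in KP4 trametinib, and rose in MiaPaca2 from 52.5 ± 3.12 to 159 ± 1.01 CPM.

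The genes that act on FOXO proteins were described with a list of 37, of which 36 were tested. In KP4 8 were higher and 13 lower, with a median log2 fold change of −0.05. In MiaPaca2 10 were higher and 16 lower, with a median of −0.02. Over all genes 23.9% were higher and 24.1% lower in KP4, and 34.4% and 29.7% in MiaPaca2. The largest rise was that of PIK3R3, a regulatory subunit of PI3 kinase, at 1.23 ± 0.05 in KP4 and 1.94 ± 0.05 in MiaPaca2 (edgeR adjusted p = 1.82e-16 and 3.63e-21). SGK3, a kinase related to AKT that can phosphorylate FOXO proteins, had log2 fold changes of 0.40 and 0.87, and IGF1R, the receptor of insulin-like growth factor, of −0.68 and −0.57 (edgeR adjusted p of both genes in both lines at most 0.0122). PIK3R1, another regulatory subunit, rose by 0.39 ± 0.10 and 0.55 ± 0.11 (edgeR adjusted p = 0.00256 and 0.000135). PIK3CD, a catalytic subunit, rose by 0.19 ± 0.07 and 0.63 ± 0.08 (edgeR adjusted p = 0.0260 and 8.06e-08), and its call in KP4 was lost without KP4 DMSO replicate 2 or 3, without KP4 trametinib replicate 1 or 3 and with no filter (edgeR adjusted p from 0.0523 to 0.117). MAPKAP1, a subunit of the AKT kinase complex mTORC2, had log2 fold changes of −0.49 ± 0.04 and −0.57 ± 0.04, and INPP4B, a lipid phosphatase, of −0.60 ± 0.06 and −0.30 ± 0.06 (edgeR adjusted p of both genes in both lines at most 9.07e-05). Among 7 genes of 14-3-3 proteins, which hold phosphorylated FOXO proteins in the cytoplasm, 2 were higher and 3 lower in KP4 and 2 higher and 4 lower in MiaPaca2. YWHAH rose by 0.38 and 0.40, each ± 0.04 (edgeR adjusted p = 1.08e-08 and 3.68e-09). Another, SFN, fell by 0.54 ± 0.13 in KP4 and rose by 1.01 ± 0.13 in MiaPaca2 (edgeR adjusted p = 0.00155 and 9.94e-08). YWHAQ fell by 0.77 in MiaPaca2 (edgeR adjusted p = 6.59e-15). SKP2, a ubiquitin ligase subunit that targets FOXO1, and USP7, which removes ubiquitin from FOXO4, were at −0.80 and −0.76 in MiaPaca2 (edgeR adjusted p = 3.74e-12 and 1.84e-14).

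CDKN1A, the cell cycle inhibitor p21 that FOXO factors can induce, fell by 0.52 ± 0.11 in KP4 and rose by 0.96 ± 0.14 in MiaPaca2 (edgeR adjusted p = 0.00177 and 7.32e-05). CDKN1A was not in the FOXO target list, so the counts of that list leave it out. MDM2, a ubiquitin ligase that marks FOXO3 for breakdown, did not pass in KP4 (−0.04 ± 0.06, edgeR adjusted p = 0.590) and rose by 0.32 ± 0.06 in MiaPaca2 (edgeR adjusted p = 5.87e-05).

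For each of the 8 genes the 3 tested genes with the most similar course over the 12 libraries were named by the root mean square difference in log2 CPM, both centred on their own mean. FOXO3 was nearest to HECTD4 (0.10 log2 units), USP9X (0.10) and DAG1 (0.11), and FOXO4 to SUOX (0.11), B3GNT2 (0.12) and FOXO3 itself (0.12). SESN1 was nearest to TTC8, FER and ADAM17 (0.12 to 0.13), TP53INP1 to TLE4, TSC22D3 and PTCH1 (0.18 to 0.21), and SESN3 to SDK2, PLEKHG4B and TRNP1 (0.19 to 0.22). DEPP1 had IFI16, CORO2A and MR1 (0.25 to 0.30), FOXO1 had SSPN, BAHCC1 and KLF9 (0.29 to 0.30), and PIK3IP1 had PLEKHB1, ALPK2 and MAP2 (0.27 to 0.38). Over all tested genes the median difference was between 0.45 for SESN1 and 1.58 for PIK3IP1. These distances describe 12 libraries in 4 groups.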

How the data were processed

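Poly(A) RNA of 12 libraries was measured, with 3 in each of 4 groups taken from the sample labels. The authors deposited raw counts, 1 whole number per gene and library. STAR, DESeq2 and the build GRCh38 (hg38) are named in the submitters' processing notes. Not given in the sources used here are the counting program, its annotation, its use of strand and how it treated reads with several matches. Identifiers were matched to GENCODE 29, which gave positions and exon lengths, and sequences came from RefSeq promoters (GRCh38.p14).

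Genes were filtered with filterByExpr, scaled by TMM and tested with edgeR 4.0.16 (R 4.3.3), by the quasi-likelihood test of its version 4 method with robust shrinkage, 1 mean per group over all 12 libraries and no covariate. In each of 5 comparisons the Benjamini-Hochberg adjustment ran over all 16133 tested genes, and an adjusted p under 0.05 is called. RPKM divides CPM by the length of all exons. In the shallowest library 1 CPM is 20.3 counts. The fit was tested on simulated data. No pair of libraries agreed within sampling noise. The alternatives were RLE scaling, library size only, no filter, a filter of 1 CPM in 6 libraries, DESeq2 1.42.0, limma-voom (limma 3.58.1), no robust shrinkage, only the libraries compared, a replicate block, leaving out each library and edgeR's earlier quasi-likelihood method, the last chosen after seeing the data. The 8 genes, the lists and the alternatives were chosen with earlier results of these data known. Besides the 8, the text names their relatives, SPRY4, DUSP6, CDKN1A and MDM2, from the 2 FOXO lists up to 4 genes with the largest changes in each direction and line among called genes of at least 1 CPM with separate libraries, and the 3 nearest genes of each. One gene and one list of the design are not reported here.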

Additional observations from a re-analysis of the deposited data

Results flagged for a closer look

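These genes responded differently to trametinib in KP4 and MiaPaca2 by edgeR's test of the difference between the responses (KP4 minus MiaPaca2, log2). Among the 8 genes it was PIK3IP1, at −1.25. Among relatives SESN2 was at −1.67, with opposite directions in the lines, and TP53INP2 at −0.53, with a rise in both. Among FOXO targets KLF2 was at 2.95, with a rise in KP4 and a fall in MiaPaca2. ERBB3 was at 1.27 and PRDX3 at 0.28, both called lower in MiaPaca2 only. CCNG2 (−0.66), SOD2 (−0.73) and FBXO32 (−1.07) rose more in MiaPaca2. These targets were among those named by the rule on largest changes. Of all 27 tested targets, 4 were called higher and 14 lower in this difference, against 16% and 19.7% of all tested genes. Among genes that act on FOXO proteins, PIK3R3 (−0.71) and PIK3CD (−0.45) rose more in MiaPaca2, SFN (−1.55) went in opposite directions, INPP4B (−0.30) fell more in KP4, and SKP2 (0.60), USP7 (0.31) and YWHAQ (0.68) fell more in MiaPaca2. CDKN1A differed by −1.47, MDM2 by −0.36 and SPRY4 by −0.57. The SPRY4 call was lost with limma-voom and without KP4 or MiaPaca2 trametinib replicate 1, the INPP4B call without KP4 trametinib replicate 1, and the PIK3IP1 call without any of the 4 libraries named beside it above.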

How the results depend on the processing

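Over 22 alternatives, 852 of 872 recomputed log2 fold changes of the 8 genes kept their side of the threshold, and no called value changed direction. All 8 were called higher in both lines under each alternative, except that KP4 had 7 without KP4 DMSO replicate 3. For the difference between the lines, 0 genes were called higher, 1 with DESeq2 and 0 to 2 when a library was left out. There 1 was called lower, 2 with library size only, DESeq2, the replicate block and the earlier quasi-likelihood method of edgeR, and 0 to 2 when a library was left out. In DMSO 1 gene was lower in KP4, and 2 with RLE scaling, the strict filter and DESeq2, and 1 to 2 when a library was left out. The FOXO control list had 13 genes higher in KP4, against 8, when only the libraries compared were used. The cause of these shifts was not tested. Same-numbered libraries did not deviate together (correlations of −0.02 to 0.02 across genes), so the numbers were not taken as pairs. With the replicate block 8 genes were again called higher in each line, and all genes called went from 3863 to 3764 higher in KP4. With 5 to 19 counts of PIK3IP1 in MiaPaca2 DMSO, depth limits its fold change.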
